A study of Mus musculus with 9 samples.

Results

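Complex I, the NADH dehydrogenase that feeds electrons into the mitochondrial respiratory chain, was followed at the level of its nuclear transcripts in mouse calvarial cells during osteoblast differentiation. The genes were all protein-coding genes of the deposited tables whose symbol starts with Nduf, without Ndufa4 and Ndufa4l2. This pair is assigned to complex IV and was listed apart. The genes followed came to 44 of 40548 genes. Of these, 36 encode subunits of the complex and 8 encode Ndufaf assembly factors, proteins that help to build the complex and are not part of it. The 36 subunits comprise 7 core subunits and 29 accessory subunits, of which 9 lie in the matrix arm, 19 in the membrane arm and Ndufab1 in both.

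The cells were prepared from the calvaria of C57BL/6 mice at postnatal day 2 to 3 according to the labels (the methods name C57BL/6J and a wider neonatal range), grown to confluence, and collected before differentiation (day 0) or after 4 or 7 days in mineralization medium, which contained β-glycerol phosphate and ascorbic acid. The 3 libraries of each stage, described as biological replicates, were made from total RNA depleted of ribosomal RNA. Mineralized cultures were released with collagenase before trypsin and the others with trypsin alone, so release and stage cannot be told apart. The animals pooled per library are not given in the sources used here.

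Complex I is shaped like an L. Its matrix arm oxidises NADH and passes its electrons along a chain of iron-sulfur clusters to ubiquinone, and its membrane arm pumps protons. The core subunits do the chemistry and are shared with bacteria, the nucleus encodes those of the matrix arm, and mitochondrial DNA encodes those of the membrane arm. Accessory subunits surround the core and are needed for its stability, and the assembly factors join the modules, insert cofactors or modify single residues.

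The libraries held between 7741204 and 37306090 reads assigned to genes, and the day 4 libraries, which lie in tables of their own, were the deepest. Every one of the 44 genes had at least 34 reads in each library and passed the filter for testing, so none was lost to low values. The libraries differed in a way that touches every result below. A group of 5 features (Gm42418, Lars2, Gm15564, Mir6236 and Plekhh2) took 19.0% of the signal in day 0 replicate 3, 12.05% in day 7 replicate 2 and 8.12% in day 7 replicate 3, but between 1.66% and 4.89% in the other 6 libraries. In day 7 replicate 3 the share was nearly all Plekhh2 (7.95%), and the other 4 features together took 0.173%, the lowest of the 9 libraries, whereas in the other 2 they made up nearly all of it. In day 0 replicate 3, which was also the shallowest, 42 of the 44 genes had their lowest day 0 value. The median coefficient of variation of the members between replicates was 15.4% on day 0, 3.83% on day 4 and 8.92% on day 7, and with library totals computed without the 5 features that of day 0 was 8.03%. Results were recomputed with library totals without the 5 features, and genes given by library whose call this changed have both values.

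The osteoblast label was checked first. Of 8 osteoblast markers, 7 were higher at day 7 than at day 0, and their summed level went from between 1801 and 2515 RPKM at day 0 to between 5664 and 6492 at day 4 and between 8042 and 10135 at day 7. Markers of other cells moved too. All 5 macrophage markers were higher at day 7 (summed level from 41.9 to 72.1 RPKM at day 0 and from 77.3 to 102 at day 7). Of 4 osteoclast markers, Acp5 and Ctsk were higher, and Ocstamp and Calcr were too low to test. Ctsk already had a mean of 120 RPKM on day 0. Of 4 chondrocyte markers, 3 were lower while the fourth, Acan, was higher (summed level from 158 to 455 RPKM at day 0 and from 43.9 to 124 at day 7). None of 4 endothelial markers reached a mean of 1 RPKM. Of 5 skeletal muscle markers, Acta1 was higher at day 7 (limma adjusted p = 0.00259), with overlapping libraries. The others of that list were too low to test. All 4 adipocyte markers were too low to test. Among them Fabp4 had a mean of 1.90 RPKM at day 0 and 0.55 at day 7, without overlap of the libraries. The part of these other cells in the complex I results was not tested, and in bulk RNA fewer cells of a type and less RNA per cell cannot be told apart.

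Transcripts of the subunits were more abundant than those of the assembly factors in every library, by 1.77 to 2.07 on the log2 scale of geometric mean RPKM, which is a comparison per length. The geometric mean of the 36 subunits was 32.1 ± 4.58 RPKM (SD, n = 3) before differentiation, 31.6 ± 0.33 on day 4 and 36.2 ± 2.64 on day 7. That of the 8 assembly factors was 8.97 ± 1.69, 8.82 ± 0.58 and 8.95 ± 0.94 RPKM. Ndufa2, a small matrix-arm subunit, and Ndufb9, a membrane-arm subunit, held the 2 highest mean levels at every stage. Ndufab1, the acyl carrier protein of the complex, was the lowest at every stage with 1.38 ± 0.219 RPKM at day 0. Its gene model of 6883 bases is far longer than the median of 1217 bases for the accessory subunits, and the same holds for Ndufb2 (5628 bases), whose level was the next lowest, so RPKM of these genes depend on which exons the model holds.

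The relation between the classes changed between the stages. Because the geometric means of 2 classes in the same library share that library's total, their ratio does not depend on how the library is scaled. The log2 ratio of accessory to core subunits was -0.21, -0.21 and -0.25 in the 3 libraries of day 0, 0.04, 0.06 and 0.08 in those of day 4 and 0.00, -0.02 and 0.02 in those of day 7. No library of one stage overlapped with those of another. Relative to the core subunits the accessory subunits were thus 22.1% higher at day 4 and 17.0% higher at day 7 than at day 0, with a pooled SD between replicates of 0.02 on the log2 scale. An exact test of 3 libraries against 3 cannot give a p under 0.1. Day 4 lies in tables of its own, and the core genes have longer models (median 2142 bases) than the accessory genes (1217 bases), so a difference in the length bias of the libraries would enter this ratio as well. For day 7 against day 0, the median log2 change of the core subunits was lower than that of the accessory subunits by 0.14, and by 0.12 after a correction for gene length.

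**Figure D1:**
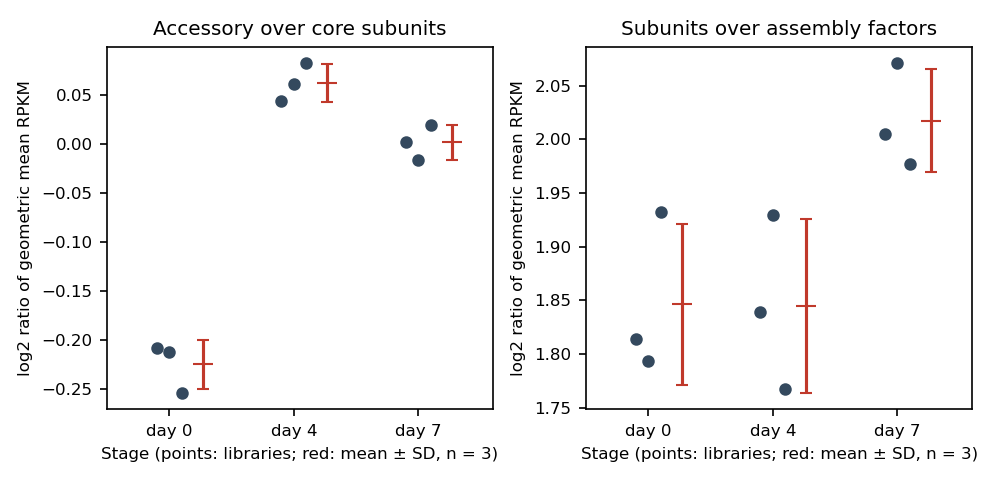
The log2 ratio of geometric mean RPKM is plotted for accessory over core subunits (left) and for all subunits over Ndufaf assembly factors (right), with a point per library and the mean ± SD of each stage beside it. On the left the stages do not overlap, with day 0 between -0.25 and -0.21 and day 4 between 0.04 and 0.08. On the right the day 7 libraries, between 1.98 and 2.07, lie above all libraries of day 0 and day 4.

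The ratio of subunits to assembly factors behaved differently. Its log2 value was 1.81, 1.79 and 1.93 in the day 0 libraries, 1.84, 1.93 and 1.77 in those of day 4 and 2.00, 2.07 and 1.98 in those of day 7. The day 0 and day 4 libraries overlapped, and the 3 libraries of day 7 were above all of them. The ratio was 12.6% higher at day 7 than at day 0. Core subunits alone overlapped with day 0 in this respect at day 7 (core over assembly factors 2.03 ± 0.09 at day 0 and 2.02 ± 0.06 at day 7, SD, n = 3), whereas accessory subunits did not (1.80 ± 0.07 and 2.02 ± 0.04).

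Day 7 was compared with day 0 gene by gene, which asks whether the nuclear complex I genes differ between mature osteoblasts and undifferentiated cells. On the CPM as deposited, 3 of the 44 genes were higher at day 7 and none was lower, and all 3 encode accessory subunits: Ndufv3, Ndufb11 and Ndufa6. Among all 12712 genes tested with limma, 12.6% were higher and 18.6% lower. An unadjusted p under 0.05 was reached by 7 genes that were higher and 0 that were lower (15.2% and 25.0% of all genes). On the recovered reads 22 were higher and 0 lower with edgeR (22.2% and 20.8% of all genes) and 20 and 0 with DESeq2 (20.3% and 18.3%). The fold changes were small: the median log2 change was 0.16 over all 44 genes, 0.20 over the subunits and -0.03 over the assembly factors, against -0.11 over all genes tested.

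The number past the threshold depended strongly on how libraries were scaled. With median-of-ratios scaling, which brings the median change of all genes to -0.01, 22 genes were higher and 0 lower (background 22.4% and 20.5%). With the voom fit that weights libraries by quality, 24 were higher and 0 lower (background 24.8% and 23.4%). With totals computed without the 5 features, 8 were higher and 1 lower (background 14.9% and 31.0%), and without day 0 replicate 3, 6 were higher and 4 lower, among them Ndufs1, Ndufv1 and Ndufa10 (background 12.6% and 36.9%). Of the calls over all genes, 40.3% were rises on the deposited values, 52.1% with median-of-ratios scaling, 32.4% without the 5 features and 25.4% without day 0 replicate 3. Measured against the median of all genes in the same fit, the median of the 44 genes was 0.27 higher on the deposited values, 0.28 with median-of-ratios scaling, 0.27 without the 5 features and 0.25 without day 0 replicate 3. Scaling moves the changes of all genes nearly alike and so hardly touches this distance. The values under other scalings are therefore no separate checks. Most of this distance went with gene length. After the trend of each library's values on gene length was removed, the median of the 44 genes lay 0.05 above that of all genes and Ndufv3 alone was higher (background 12.7%). The median length of all genes tested was 3848 bases, against 1328 for the 44 genes.

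**Figure D2:**
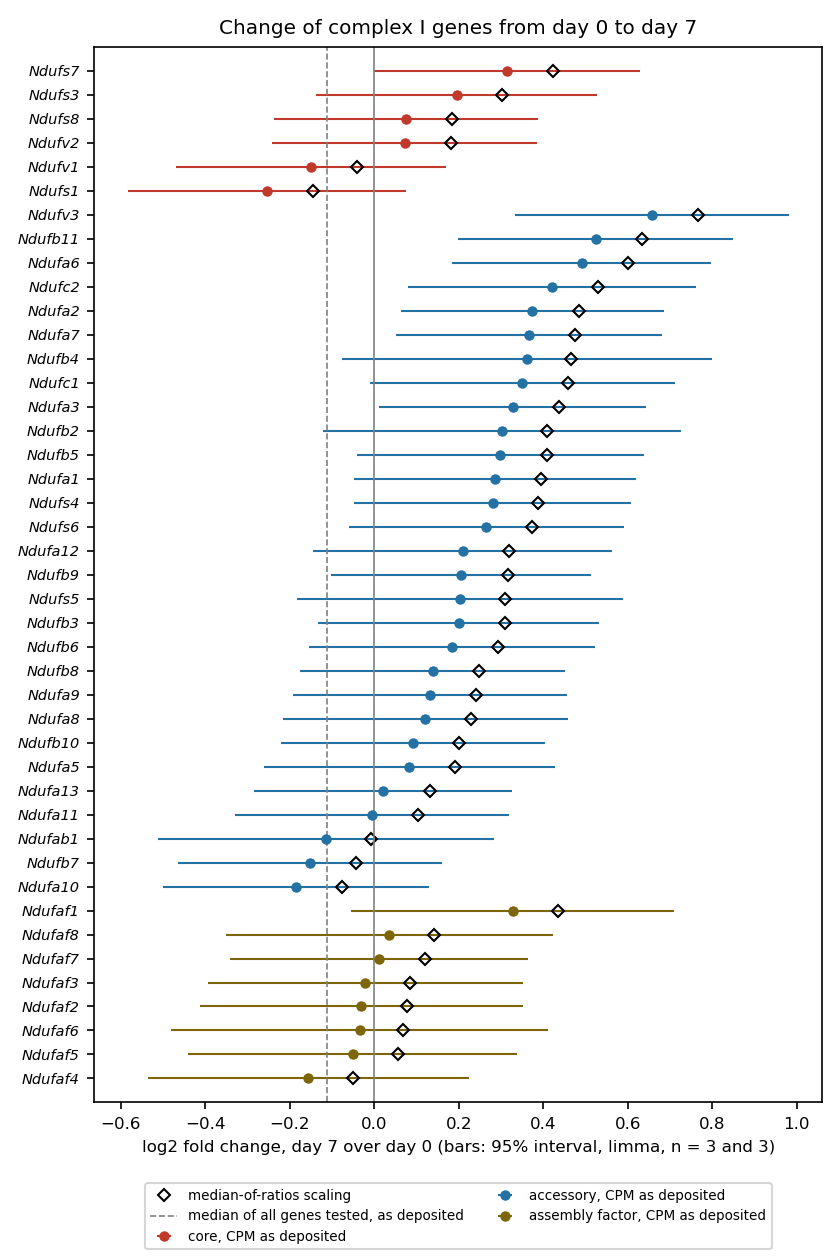
Of the 44 genes, 43 are plotted, each with its log2 fold change of day 7 over day 0 and its 95% interval from limma on the deposited CPM (3 libraries per stage), coloured by class, with the change under median-of-ratios scaling as an open diamond. The intervals of Ndufv3, Ndufb11 and Ndufa6 lie farthest above 0, the 6 core subunits shown run from -0.25 to 0.31, and the dashed line is the median of all genes tested.

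The 7 core subunits had no call in either direction with limma (0 at an unadjusted p under 0.05, 2 higher with edgeR and with DESeq2, 3 with the voom fit), and the changes of the 6 given here ran from -0.25 (Ndufs1) to 0.31 (Ndufs7). NADH is oxidised on Ndufv1, which carries the flavin and is encoded at chr19:4007384-4012806, minus strand (GRCm38). Ndufv1 measured 49.8, 49.97 and 36.7 RPKM in the day 0 libraries, 36.2, 35.8 and 36.5 in those of day 4 and 42.3, 35.3 and 44.7 in those of day 7. Its log2 change from day 0 to day 7 was -0.15 ± 0.16 (SE, n = 3 and 3, limma adjusted p = 0.511), with overlapping libraries. Ndufv2, an iron-sulfur subunit beside it (chr17:66078638-66101559, minus strand), measured 51.2, 51.9 and 38.99 RPKM in the day 0 libraries, 41.8, 42.6 and 43.6 in those of day 4 and 47.5, 49.6 and 51.2 in those of day 7. Its day 7 libraries lay within the range of day 0, with a log2 change of 0.07 ± 0.16 (SE, n = 3 and 3, limma adjusted p = 0.768). Ndufs1, the large subunit that carries further iron-sulfur clusters of this module (chr1:63143596-63176833, minus strand), measured 13.9, 12.9 and 8.75 RPKM in the day 0 libraries, 9.35, 8.54 and 9.25 in those of day 4 and 9.11, 9.49 and 10.6 in those of day 7. Day 0 replicate 3 was as low as the later stages and the other 2 day 0 libraries were higher. The log2 change of Ndufs1 was -0.25 ± 0.16 (SE, n = 3 and 3, limma adjusted p = 0.25), and without day 0 replicate 3 it was -0.46 (adjusted p = 0.00292).

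Nearer the membrane, Ndufs7, the subunit with the last iron-sulfur cluster before ubiquinone (chr10:80249121-80256794, plus strand), measured 27.4, 31.05 and 27.96 RPKM in the day 0 libraries, 27.1, 28.7 and 26.8 in those of day 4 and 38.00, 35.04 and 34.5 in those of day 7. Among the 7 core subunits it was the only one whose day 7 libraries were all above those of day 0, with a log2 change of 0.31 ± 0.16 (SE, n = 3 and 3, limma adjusted p = 0.125). Under median-of-ratios scaling its change was 0.42 (adjusted p = 0.00824), and with totals without the 5 features 0.28 (adjusted p = 0.027).

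Ndufs3, a structural core subunit of the quinone module (chr2:90894634-90904827, minus strand), measured 19.1, 16.97 and 14.6 RPKM in the day 0 libraries, 15.4, 14.9 and 15.7 in those of day 4 and 20.1, 16.6 and 21.3 in those of day 7. The stages overlapped between day 0 and day 7, with a log2 change of 0.19 ± 0.17 (SE, n = 3 and 3, limma adjusted p = 0.399), and 17.9% of the 50-base windows of its transcripts also occur in transcripts of other genes, mainly a processed pseudogene. Ndufs8, which carries a pair of iron-sulfur clusters (chr19:3908863-3912774, minus strand), measured 64.8, 63.4 and 56.7 RPKM in the day 0 libraries, 55.8, 54.6 and 51.1 in those of day 4 and 64.9, 60.5 and 69.4 in those of day 7. Day 4 was below both other stages in every library, and the log2 change to day 7 was 0.07 ± 0.16 (SE, n = 3 and 3, limma adjusted p = 0.761).

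**Figure D3:**
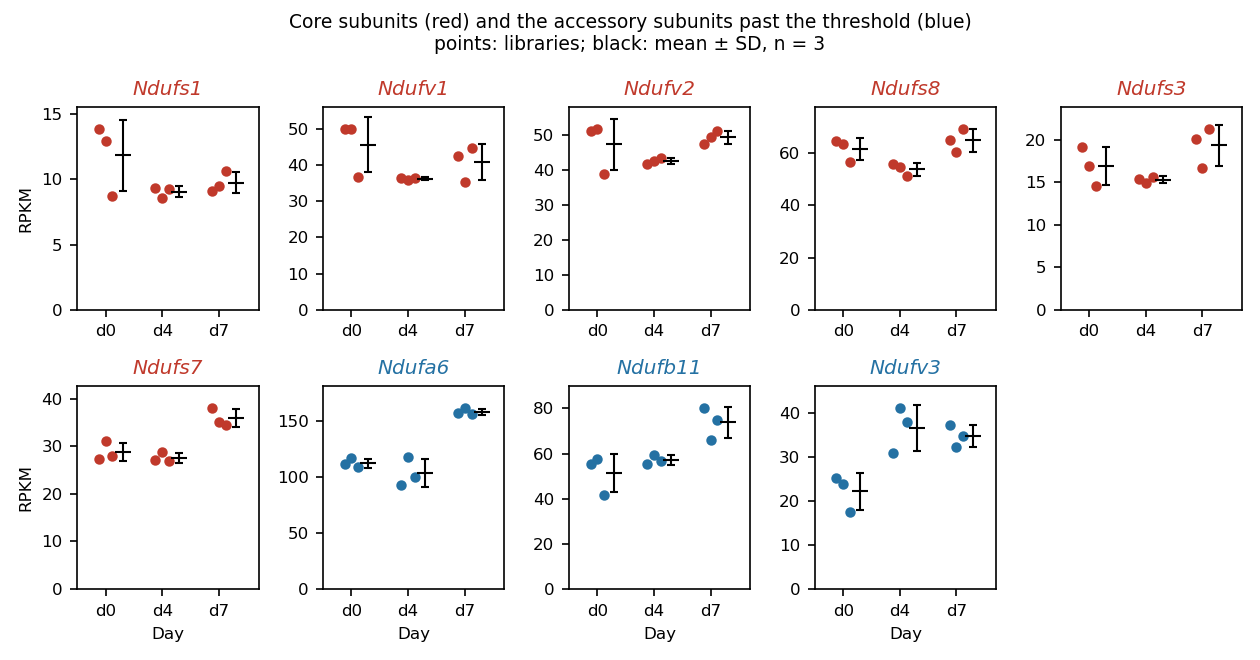
RPKM of 6 core subunits (red) and of the 3 accessory subunits past the threshold at day 7 (blue) are plotted by stage, with a point per library, the mean ± SD (n = 3) in black and each axis starting at 0. The mean of each of these core subunits is lowest at day 4, and Ndufs7 alone among them has all day 7 libraries above day 0.

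Among accessory subunits, 25 of 29 had a positive log2 change and 4 a negative one. Of all 12712 genes tested, 4920 had a positive change and 7792 a negative one. In the matrix arm all 9 were positive, with a median of 0.28, and in the membrane arm 16 of 19 were, with a median of 0.20. These directions moved with the length correction, after which 6 of 9 and 8 of 19 were positive and the median change of all genes tested was -0.09. Ndufv3, an accessory subunit of the NADH-oxidising module (chr17:31520115-31531331, plus strand), measured 25.3, 23.97 and 17.5 RPKM in the day 0 libraries, 30.9, 41.2 and 37.98 in those of day 4 and 37.2, 32.4 and 34.8 in those of day 7. All libraries of day 4 and day 7 were above those of day 0, while day 4 and day 7 overlapped. Its log2 change was 0.66 ± 0.16 (SE, n = 3 and 3, limma adjusted p = 0.00117), a 1.58-fold rise, and it passed the threshold under all 20 alternatives, with adjusted p of at most 0.0218.

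Ndufb11, a membrane-arm subunit encoded on the X chromosome (chrX:20615326-20617619, minus strand), measured 55.2, 57.4 and 41.8 RPKM in the day 0 libraries, 55.2, 59.5 and 56.9 in those of day 4 and 80.1, 66.2 and 74.96 in those of day 7. Day 4 overlapped with day 0, and the 3 libraries of day 7 were above both. Its log2 change was 0.52 ± 0.16 (SE, n = 3 and 3, limma adjusted p = 0.0103). The call was lost after length correction (log2 change 0.28, adjusted p = 0.169) and without day 7 replicate 1 (adjusted p = 0.0861) or day 7 replicate 3 (adjusted p = 0.0613), and 12.9% of its exonic bases overlap Rbm10 on the other strand. Ndufa6, a matrix-arm subunit of the LYR family that holds the acyl carrier protein (chr15:82350140-82354322, minus strand), measured 112, 116 and 108 RPKM in the day 0 libraries, 92.9, 117 and 99.4 in those of day 4 and 157, 161 and 156 in those of day 7. Day 7 stood well above both earlier stages, which overlapped. Its log2 change was 0.49 ± 0.15 (SE, n = 3 and 3, limma adjusted p = 0.0106), and the call was lost after length correction (0.16, adjusted p = 0.419) and without day 7 replicate 2 (adjusted p = 0.0556) or replicate 3 (adjusted p = 0.063).

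The next largest changes did not pass the threshold on the deposited values. Ndufc2, a small membrane-arm subunit, measured 67.8, 57.3 and 39.9 RPKM in the day 0 libraries, 58.8, 64.1 and 63.7 in those of day 4 and 71.6, 70.6 and 74.3 in those of day 7. Every day 7 library was above every day 0 library, of which replicate 3 was far below the others, and the log2 change was 0.42 ± 0.17 (SE, n = 3 and 3, limma adjusted p = 0.0528). Ndufa2, a matrix-arm subunit with a thioredoxin-like fold, measured 186, 171 and 147 RPKM in the day 0 libraries, 159.5, 160.0 and 155 in those of day 4 and 225, 193 and 237 in those of day 7. Here too day 7 did not overlap with day 0, with a log2 change of 0.37 ± 0.16 (SE, n = 3 and 3, limma adjusted p = 0.0603). Under median-of-ratios scaling Ndufc2 and Ndufa2 changed by 0.53 (adjusted p = 0.00261) and 0.48 (adjusted p = 0.000664). With totals without the 5 features they changed by 0.38 (adjusted p = 0.0292) and 0.34 (adjusted p = 0.00838).

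At the other end of the accessory subunits stood Ndufa10, a membrane-arm subunit facing the matrix, with 31.9, 28.7 and 23.4 RPKM in the day 0 libraries, 25.3, 24.8 and 25.1 in those of day 4 and 23.4, 25.3 and 24.7 in those of day 7. Its log2 change was -0.19 ± 0.16 (SE, n = 3 and 3, limma adjusted p = 0.396), and the day 7 libraries overlapped with day 0 only through replicate 3 of day 0. Ndufb7, a subunit on the intermembrane-space side, measured 20.3, 20.9 and 17.6 RPKM in the day 0 libraries, 15.2, 14.7 and 15.7 in those of day 4 and 17.1, 16.00 and 19.9 in those of day 7. All day 4 libraries were below both other stages, and the log2 change to day 7 was -0.15 ± 0.16 (SE, n = 3 and 3, limma adjusted p = 0.496).

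Across all 44 genes, the libraries of day 7 lay above those of day 0 without overlap for 10 genes, and below for 0. Over all genes tested these shares were 16.9% and 25.4%. Of the 10, 9 were accessory subunits (Ndufv3, Ndufb11, Ndufa6, Ndufc2, Ndufa2, Ndufa7, Ndufa3, Ndufs6 and Ndufb9) and Ndufs7 was the core subunit.

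**Figure D4:**
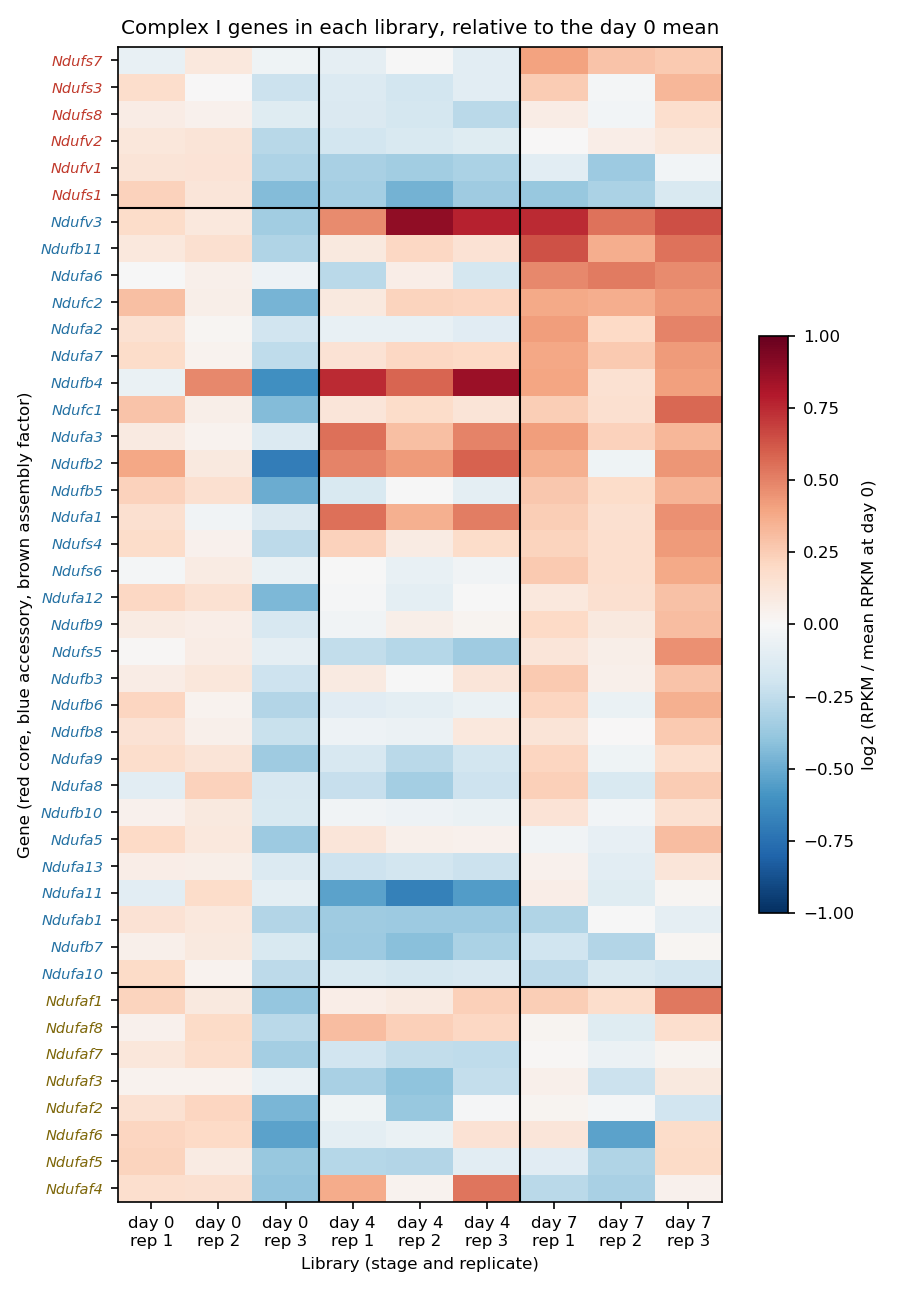
For 43 of the 44 genes, the heatmap shows the log2 ratio of RPKM to the gene's own day 0 mean in all 9 libraries (columns, by stage and replicate), with core subunits at the top, accessory subunits in the middle and assembly factors at the bottom, and genes of a class ordered by their change to day 7. Day 0 replicate 3 holds the lowest day 0 value of 42 of the 44 genes, the core rows are blue at day 4, and most accessory rows are red at day 7.

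The 8 assembly factors had no call with limma (0 at an unadjusted p under 0.05, 1 higher with each of edgeR, DESeq2 and the voom fit), with log2 changes from -0.16 to 0.33. Ndufaf1, which belongs to the complex that builds the membrane arm, measured 9.45, 8.69 and 6.19 RPKM in the day 0 libraries, 8.48, 8.64 and 9.57 in those of day 4 and 9.61, 9.17 and 11.7 in those of day 7. Its libraries overlapped across stages, its log2 change was 0.33 ± 0.19 (SE, n = 3 and 3, limma adjusted p = 0.197), and it was the only assembly factor past the threshold with median-of-ratios scaling (0.43, adjusted p = 0.0155). Ndufaf2, a relative of Ndufa12 that acts late in assembly, measured 24.1, 25.1 and 15.8 RPKM in the day 0 libraries, 20.99, 16.6 and 21.4 in those of day 4 and 22.1, 21.4 and 18.9 in those of day 7. Its stages overlapped and its log2 change was -0.03 ± 0.19 (SE, n = 3 and 3, limma adjusted p = 0.922). In the GENCODE M21 model, 65.6% of the exonic bases of Ndufaf2 overlap the noncoding gene B230220B15Rik on the other strand.

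Ndufaf3 and Ndufaf4 act together on the quinone module. Ndufaf3 measured 11.9, 11.9 and 11.02 RPKM in the day 0 libraries, 9.28, 8.80 and 9.86 in those of day 4 and 12.02, 10.01 and 12.4 in those of day 7, and was below both other stages in all day 4 libraries. Ndufaf4 measured 4.55, 4.52 and 3.08 RPKM in the day 0 libraries, 5.23, 4.16 and 5.86 in those of day 4 and 3.36, 3.24 and 4.16 in those of day 7, with day 4 overlapping day 0 and the lowest mean at day 7. Their log2 changes to day 7 were -0.02 ± 0.19 (SE, n = 3 and 3, limma adjusted p = 0.948) and -0.16 ± 0.19 (SE, n = 3 and 3, limma adjusted p = 0.573).

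Ndufaf5 hydroxylates an arginine of Ndufs7, and Ndufaf8 stabilises Ndufaf5. Ndufaf5 measured 8.65, 7.85 and 5.70 RPKM in the day 0 libraries, 6.06, 6.05 and 6.90 in those of day 4 and 6.83, 6.02 and 8.44 in those of day 7, with all stages overlapping. Ndufaf8 measured 13.1, 14.5 and 10.5 RPKM in the day 0 libraries, 15.7, 14.97 and 14.7 in those of day 4 and 12.99, 11.7 and 14.3 in those of day 7, with day 4 above both other stages in every library. Their log2 changes to day 7 were -0.05 ± 0.19 (SE, n = 3 and 3, limma adjusted p = 0.872) and 0.04 ± 0.19 (SE, n = 3 and 3, limma adjusted p = 0.913).

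Ndufaf7 methylates an arginine of the complex and Ndufaf6 is needed for an early step of assembly. Ndufaf7 measured 10.6, 11.00 and 7.68 RPKM in the day 0 libraries, 8.54, 8.24 and 8.15 in those of day 4 and 9.85, 9.35 and 9.94 in those of day 7, and Ndufaf6 measured 6.53, 6.43 and 3.87 RPKM in the day 0 libraries, 5.25, 5.36 and 6.20 in those of day 4 and 6.10, 3.87 and 6.37 in those of day 7. Their day 0 and day 7 libraries overlapped, with log2 changes of 0.01 ± 0.18 (SE, n = 3 and 3, limma adjusted p = 0.97) and -0.03 ± 0.22 (SE, n = 3 and 3, limma adjusted p = 0.925). These genes rest on few reads, for Ndufaf6 between 37 and 276 per library.

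Day 4, the intermediate stage, was compared by direction without a test. Of the 44 genes, 28 had a day 4 mean RPKM under that of day 0 and 16 had one over it, and of all genes 56.1% were lower and 43.9% higher. All 7 core subunits were lower, against 16 of 29 accessory subunits and 5 of 8 assembly factors. The libraries did not overlap for 10 genes that were lower and 6 that were higher (background 21.9% and 21.6%). Without day 0 replicate 3, 10 genes were higher at day 4. The geometric mean of the core subunits was 15.4% lower at day 4 than at day 0, with every day 4 library (30.3 to 30.8 RPKM) below every day 0 library (30.9 to 39.3 RPKM), and day 0 replicate 3 the nearest to day 4. That of the accessory subunits overlapped (31.6 to 32.3 RPKM at day 4 and 25.9 to 34.0 at day 0).

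From day 4 to day 7, 35 of the 44 genes had a higher mean and 9 a lower one, while of all genes 40.1% were higher and 59.9% lower. The mean was higher for all 7 core subunits, 23 of 29 accessory subunits and 5 of 8 assembly factors, and the libraries did not overlap for 25 genes that were higher and 2 that were lower, Ndufb4 and Ndufaf8 (background 13.6% and 25.0%). The geometric mean of the core subunits was 18.1% higher and that of the accessory subunits 13.2% higher at day 7 than at day 4. Day 4 was the lowest of the 3 stages for 26 genes, including all 7 core subunits, and 25.5% of all genes had this pattern. It was the highest for 7 genes (background 29.4%): Ndufa1, Ndufa3, Ndufb2, Ndufb4, Ndufv3, Ndufaf4 and Ndufaf8. Ndufa11, a membrane-arm subunit, had the deepest dip, from 15.9 ± 1.87 RPKM before differentiation to 10.6 ± 0.563 on day 4 and 15.8 ± 1.04 on day 7 (SD, n = 3). Day 4 differs from the other stages also in its depth and its tables, and whether these play a part was not tested.

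Genes that work with the nuclear subunits were described with the same fit. The remaining core subunits are encoded by mitochondrial DNA, and all 5 such genes tested were higher at day 7 (3 of them after length correction, when mt-Nd1 and mt-Nd5 were not called), with mt-Nd2 at 49.4 ± 4.28 RPKM before differentiation, 296 ± 28.2 on day 4 and 94.0 ± 17.6 on day 7 (SD, n = 3). Their geometric mean was between 82.3 and 88.9 RPKM on day 0, 290 and 328 on day 4 and 116 and 149 on day 7, so at day 4, where the nuclear core transcripts had their lowest mean, the mitochondrial ones had their highest. The gap on the log2 scale to the nuclear subunits was 1.41 ± 0.19, 3.30 ± 0.09 and 1.92 ± 0.12 (SD, n = 3). The day 4 values lie in separate tables, and how this bears on this gap was not tested. Over the 20 alternatives mt-Nd1 passed the threshold in 15 and mt-Nd5 in 13. Both lost their call without day 0 replicate 2, day 7 replicate 1 or day 7 replicate 3, and mt-Nd5 also without day 0 replicate 1. mt-Nd4l was listed at 0 in every library and mt-Nd3 was too low to test.

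Of 11 further assembly factors outside the Ndufaf family, limma called 0 in either direction (unadjusted p under 0.05 for 1 higher and 0 lower, calls for 2 and 0 with edgeR, 1 and 0 with DESeq2, 2 and 1 with the voom fit), with a median log2 change of -0.09. Ecsit, which works with Ndufaf1, had the largest increase with 0.42 ± 0.18 (SE, n = 3 and 3, limma adjusted p = 0.066). In the iron-sulfur cluster pathway, which supplies the cofactors of the matrix arm, Hscb was higher (0.59 ± 0.20, limma adjusted p = 0.0171) and the other 14 genes were not called by limma, with a median of 0.00 over the list (unadjusted p under 0.05 for 1 higher and 2 lower, calls for 5 and 0 with edgeR, 5 and 1 with DESeq2, 5 and 3 with the voom fit). Hscb lost its call after length correction and without day 7 replicate 1 or replicate 2, and passed in 15 of 20 alternatives. Nuclear subunits of the other complexes were higher in 2 of 9 cases for complex III, 4 of 10 for complex IV and 3 of 15 for complex V, with 0 lower (also 0 at an unadjusted p under 0.05 and with edgeR), where 12.6% of all genes were higher. With edgeR 6, 8 and 7 were higher, and after length correction 2, 0 and 1, with 1 of complex IV lower. The 10 genes of complex IV do not include Ndufa4 and Ndufa4l2, which formed a list of their own. In that list Ndufa4 was lower (-0.52 ± 0.16, limma adjusted p = 0.00973) and passed in 19 of 20 alternatives. Ndufa4l2 was higher (6.00 ± 0.17, limma adjusted p = 1.99e-32) and passed in all 20. In complex II, Sdha was lower (-0.40 ± 0.16, limma adjusted p = 0.0425) and 0 of 4 were higher (0 at an unadjusted p under 0.05, 1 with edgeR). Sdha passed in 10 of 20 alternatives, and its call was lost after length correction and without any single library other than day 0 replicate 3. The median log2 changes of complexes III, IV, V and II were 0.29, 0.38, 0.14 and -0.03, beside 0.20 for the subunits of complex I. Of 9 regulators of respiratory chain genes tested, limma called 0 in either direction (unadjusted p under 0.05 for 0, calls for 2 higher and 0 lower with edgeR and DESeq2, 2 and 1 with the voom fit), with log2 changes from -0.27 (Gabpa) to 0.16 (Gabpb2).

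Promoters were searched because nuclear genes of the respiratory chain are often read from promoters with sites for NRF1, GABP, ERR alpha or YY1. RefSeq promoters of build GRCm38.p6, from 250 bases before the start of transcription to 50 after it, matched 39 of the 44 genes. Genes without a match included Ndufa2, Ndufaf6, Ndufb9 and Ndufs1. The letters GCGCATGCG (NRF1) were found on either strand in 4 genes, 10.3% of the 39, against 4.23% of the tested genes with a promoter and 1.95% of all genes. In 3 of them (Ndufa11, Ndufaf4 and Ndufaf5) the letters matched on both strands at overlapping positions, since the site reads nearly the same both ways. The stretches around the matches are printed in lower case on the strand of the gene, with the matched letters in capitals, because they show where the site sits in each gene.
Ndufa8 (chr2:36049339-36049398, minus strand): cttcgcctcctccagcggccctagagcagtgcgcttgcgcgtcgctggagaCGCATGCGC
Ndufa11 (chr17:56717677-56717736, plus strand): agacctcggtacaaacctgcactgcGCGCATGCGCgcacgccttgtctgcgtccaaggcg
Ndufaf4 (chr4:24897945-24898004, plus strand): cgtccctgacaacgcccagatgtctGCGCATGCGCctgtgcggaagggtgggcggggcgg
Ndufaf5 (chr2:140170652-140170681, plus strand): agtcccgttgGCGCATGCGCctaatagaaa

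The matches begin 9 bases before the start of transcription in Ndufa8, 60 before it in Ndufa11 and 113 before it in Ndufaf4, and at base 17 after it in Ndufaf5. These 4 genes had log2 changes of 0.12, -0.01, -0.16 and -0.05 from day 0 to day 7, none past the threshold. The 3 genes that rose at day 7, Ndufv3, Ndufb11 and Ndufa6, held no match to any of the 4 motifs in this window.

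AAGATGGCG (YY1) was found in 6 genes, 15.4% of the 39, against 3.65% of the tested genes and 1.64% of all genes. In 5 of the 6 the letters include the annotated start codon, whose surroundings they resemble, and they are shown for a core and an accessory subunit to make this visible.
Ndufs7 (chr10:80249462-80249491, plus strand): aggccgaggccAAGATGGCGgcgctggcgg
Ndufs6 (chr13:73328433-73328462, minus strand): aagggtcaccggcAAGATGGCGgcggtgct

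The other 4 genes with these letters were Ndufa9, Ndufc1, Ndufs4 and Ndufaf8. CCGGAAGT (GABP) was found in Ndufs3 alone, 2.56% of the 39 against 9.20% of the tested genes, and TCAAGGTCA (ERR alpha) in 0 of the 39 against 0.33% of the tested genes. A match describes the letters of these windows and no binding was measured.

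Some levels are uncertain because of neighbouring or copied sequence. Exonic bases overlapped another gene on the other strand for 65.6% of Ndufaf2 (B230220B15Rik), 39.0% of Ndufb6 (Smim27) and 29.98% of Ndufa13 (Tssk6). For Ndufb9, 19.5% of exonic bases overlapped Gm49356 on the same strand. Windows of 50 bases were shared with other genes, mainly processed pseudogenes, for 21.7% of Ndufs5, 18.3% of Ndufb4, 17.7% of Ndufa12 and 17.5% of Ndufb11. These shares are of the GENCODE M21 models, while the model that was counted was shorter for Ndufaf2 (679 against 2978 bases), Ndufb9 (651 against 1031), Ndufb4 (1170 against 1916), Ndufa12 (1334 against 1569) and Ndufa13 (1243 against 1251), so for these genes the share of the counted bases may differ. Only uniquely aligned reads were counted, and whether counting used the strand is not given in the sources used here.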

How the data were processed

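Total RNA of 9 cultures was depleted of ribosomal RNA and sequenced. According to the submitters' processing notes and the methods, the authors used STAR 2.0.4b for alignment to GRCm38 (Ensembl release 76) and featureCounts for counting, which kept reads with 1 alignment and 1 gene. They deposited CPM, which scale reads to the library's reads on genes, and RPKM, which also divide by gene model length, with day 0 and day 7 in shared tables and day 4 in separate ones. The tables hold 40548 genes, and a repeated identical line was used once. In every library 100% of the CPM were whole multiples of 1 read (tolerance 0.05), which recovered 7741204 to 37306090 reads per library. No TMM factor is part of the CPM.

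From these, a limma 3.58.1 fit in R 4.3.3 with a variance trend set day 7 against day 0 on the log2(CPM + 0.5) scale, using 12712 genes whose mean CPM was at least 1, with Benjamini-Hochberg adjustment over all of them and a threshold of 0.05. Fold changes are on that log2(CPM + 0.5) scale, which understates those of low genes. The prior held 42.9 degrees of freedom and the libraries 4, so a gene's own replicates weigh little in its p-value. Day 4 was compared by direction only. An exact permutation test over 3 and 3 libraries cannot give a p under 0.1. The scripts were tested on simulated data. No library was a duplicate of another, since within each stage the chi-square between libraries was at least 13.02 per degree of freedom.

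Alternatives were other pseudocounts, filters and scalings, a correction for gene length, the replicate number as a block, leaving out libraries, and edgeR 4.0.16, DESeq2 1.42.0 and TMM with voomWithQualityWeights (the voom fit, which is the kind of fit the methods name) on the recovered reads. Library totals without 5 features, and leaving out day 0 replicate 3 with day 7 replicate 2, were chosen after seeing the data. Coordinates and overlaps come from GENCODE M21 (GRCm38) and promoters from RefSeq. The genes with values in every library are the core subunits, the Ndufaf factors and, among the 44, the 5 with the largest rise and the 5 with the largest fall, and genes of other lists are named by their largest rise or fall or by a call. A single core subunit is counted in the class values but not reported by itself here. Members and lists were chosen with earlier results of these data known, and genes and windows in lists of overlaps, dips and peaks were named after their values were seen.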

Additional observations from a re-analysis of the deposited data

How the results depend on the processing

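On the deposited values 3 complex I genes were higher at day 7 and 0 lower, and these counts moved most of all the results. The higher count was 22 with median-of-ratios scaling, 22 with edgeR, 24 with voomWithQualityWeights, 20 with DESeq2, 8 with library totals without the 5 features, 1 with length correction, 1 with replicate block and length correction together, and 8 when day 0 replicate 3 and day 7 replicate 2 were left out together. Leaving out each library in turn gave 1 (without day 7 replicate 3) to 6 (without either day 0 replicate 1 or replicate 3). The lower count was 1 without the 5 features, 3 with both libraries left out, and 0 to 4 over the single libraries, with 4 without day 0 replicate 3. The other pseudocounts, filters, the RPKM table and the replicate block gave 3 or 4 higher and 0 lower. The difference of subunits minus assembly factors in median log2 change was 0.23, and 0.16 with length correction (also together with the replicate block), and 0.16 to 0.24 over the single libraries. That of core minus accessory subunits was -0.14, and -0.12 with length correction, -0.17 with edgeR, -0.17 with voomWithQualityWeights, -0.16 with DESeq2, -0.24 with both libraries left out and -0.23 to -0.13 over the single libraries. Both kept their direction in all 20 alternatives, but not all of these could have changed it. Scaling shifts the genes of a library nearly alike, and the replicate block leaves fold changes as they are. These settings are therefore no test of the direction. The number of genes with a higher mean at day 4 than at day 0 was 16, and 10 to 21 over the single libraries, and that from day 4 to day 7 was 35, and 34 to 37 over the alternatives. For the 21 genes given by library under 20 alternatives, 377 values stayed on their side of the threshold, 35 passed it only under an alternative and 8 (Ndufa6 and Ndufb11) lost it. Same-numbered libraries showed no shared deviations (correlations -0.02, -0.18 and -0.44). The highest correlation, 0.36, was between day 0 replicate 3 and day 7 replicate 2. With 3 libraries per stage this cannot exclude that same-numbered cultures came from one cell preparation. With the replicate block the count stayed at 3 higher and 0 lower. The causes of these changes were not tested. At the lowest depth, a gene such as Ndufb4 rests on 34 reads, and the 3 libraries per stage limit which differences can be called.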
